A study of Mus musculus with 6 samples.

Results

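The Wnt ligands, their receptors and their secreted antagonists were compared between cells with high binding (HBC) and low binding (LBC) of FcsFNDC4, the soluble part of FNDC4 fused to a human antibody Fc. The group holds the genes whose symbol is Wnt, Fzd, Sfrp, Dkk, Rspo or Lgr with a number, together with Frzb, Wif1, Lrp5, Lrp6, Ror1, Ror2, Ryk, Axin2, Lef1, Tcf7, Notum and Porcn. Of 56 genes named in this way, 55 had a transcript cluster (a group of array probes read together) annotated to them alone, out of 19938 such genes in all; Tcf7 was not analysed here. Both cell groups descend from immortalized stromal vascular preadipocytes of inguinal white fat from male 129SVE mice, and both had been sorted 20 times for the binding of FcsFNDC4 and were expanded in the same medium, with no other treatment named. HBC and LBC were each measured on 3 arrays, which the titles call technical replicates at passage 20. Each group is 1 sorted population, so all p-values measure the spread between technical replicates and not between independent sorts.

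Wnt ligands are secreted lipid-modified proteins that bind Frizzled receptors and the co-receptors Lrp5 and Lrp6, which keeps beta-catenin from being degraded and lets it act with TCF/LEF factors in the nucleus. Other Wnts signal through Ror and Ryk receptors without beta-catenin. R-spondins strengthen the signal by binding Lgr receptors and removing the ubiquitin ligases Znrf3 and Rnf43, which otherwise clear Frizzled proteins from the cell surface. Sfrp proteins, Frzb and Wif1 bind Wnts, most Dkk proteins bind the Lrp co-receptors, and Notum removes the lipid. In preadipocytes, signalling through beta-catenin is known for holding back adipocyte differentiation.

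The arrays gave intensities on a linear scale, with a median over all clusters between 122 and 135 on the 6 arrays. They correlated across genes at r from 0.996 to 0.999 within a group and from 0.980 to 0.986 between groups. Summed over the 19938 genes, intensity ran from 9181727 to 9797430 on the HBC arrays and from 8964673 to 10461464 on the LBC arrays. In their source names LBC replicates 2 and 3 are called high binding cells, while their titles and phenotypes read as LBC, and titles were used. Within-group correlations above include these arrays. With LBC replicate 1 alone against the HBC arrays, an alternative chosen after seeing the data that assumes the lone array varies like the HBC arrays, 5 of the genes described here were called higher and 3 lower, against 6 and 3 with all arrays. Log2 fold changes, with their standard errors (SE), are HBC minus LBC on the scale of log2(intensity + 16), where the added 16 makes changes of dim genes smaller. A gene was called at an adjusted p under 0.05 (limma, Benjamini-Hochberg over 19938 genes) and a fold above 1.5. Olfactory receptor genes, which these cells are not thought to use, gave a reference for dim signal, and 90 percent of 1016 such genes had a mean of at most 84.4, called the dim range below. Of 15 stromal preadipocyte markers, 12 lay above that range in both groups, among them Pdgfra with arrays of 2923 to 4331, whereas Dpp4, Pi16 and Lum lay within it. All 6 endothelial markers, and 3 of 6 adipocyte markers (Adipoq, Lep and Cidec), lay within it too, while Plin1, Retn and Slc2a4 lay above it in both groups. Of other lists, 5 of 10 leukocyte, 1 of 6 mural, 1 of 4 mesothelial, 1 of 4 epithelial and 0 of 2 Schwann markers lay within it in both groups. A signal above the range therefore does not by itself mark a cell type. Since these are bulk samples, fewer cells of a type and less RNA per cell cannot be told apart.

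Rspo2, Rspo3 and the R-spondin receptors Lgr4 and Lgr5 were higher in HBC, together with Fzd1 and Sfrp1, while Lef1, Dkk2 and Fzd3 were lower. Of the 55 genes, 6 were called higher (10.9%) and 3 lower (5.45%), against 2.54% and 1.13% of all genes tested. Together these were 9 of 55 (16.4%), against 3.67% of all genes. No gene of a Wnt ligand was called. The arrays of HBC and LBC did not overlap for 24 of the 55 genes (43.6%), against 35.2% of all genes. Another 6 members passed the adjusted p but not the fold, so 15 members passed it at any fold (27.3%), against 18.3% of all genes. The other 40 had log2 fold changes from -0.24 to 0.16. The median over the 55 genes was -0.08 and that over all genes was -0.07.

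**Figure D1:**
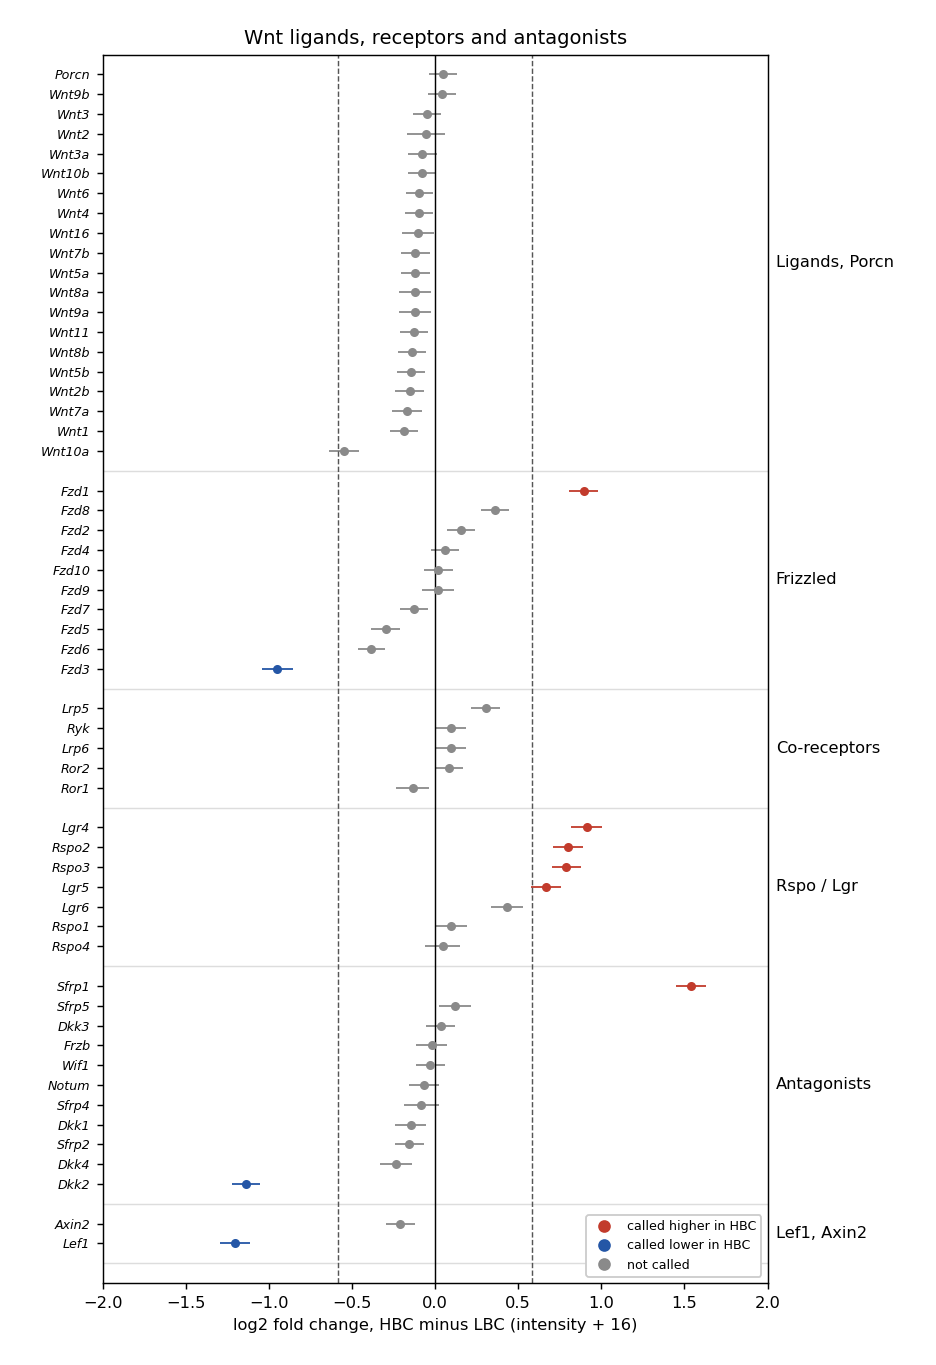
The 55 genes in 6 groups by role, each at its log2 fold change between HBC and LBC (after adding 16) with a bar of 1 SE (limma, 3 arrays a group) and dashed lines at a fold of 1.5. Red marks the 6 genes called higher, blue the 3 called lower and grey the 46 not called, and 4 of the red genes belong to the R-spondin and Lgr group.

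R-spondins and their receptors formed the group with the most calls. Of 7 genes, 4 were called higher (57.1%, against 2.54% of all genes), none was called lower, and the median log2 fold change was 0.67. Lgr4, a receptor for R-spondins, read 992, 1021 and 963 on the HBC arrays and 484, 483 and 601 on the LBC arrays. Every HBC array lay above every LBC array, and LBC replicate 3 was the highest of its group. The means were 992 ± 28.8 (SD, n = 3) and 523 ± 67.9 (SD, n = 3), with 1.90 as their ratio, and the fitted log2 fold change was 0.91 (SE 0.091, adjusted p = 4.1e-09). Lgr5, a receptor best known from intestinal stem cells, read 106.6, 93.2 and 91.3 in HBC and 60.8, 52.4 and 52.3 in LBC. Its groups did not overlap either, and its LBC mean of 55.2 lay within the dim range. The log2 fold change was 0.67 (SE 0.088, adjusted p = 8.4e-07), and with 50 added in place of 16 it was 0.48 and the call was lost. The call was also lost with LBC replicate 1 alone (0.55). Lgr6, another R-spondin receptor, read 323, 345 and 304 in HBC and 215, 213 and 285 in LBC. At 0.43 (adjusted p = 0.0016) its log2 fold change stayed below the fold, although all 3 HBC arrays lay above the LBC arrays.

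The ligands of these receptors divided into 2 that were called and 2 that were not. Rspo2 read 732, 810.0 and 648 in HBC and 399, 437 and 397 in LBC, with no overlap. This was a log2 fold change of 0.80 (SE 0.091, adjusted p = 4.9e-08), a ratio of means of 1.78. Rspo3, which is also a known ligand of Lgr4 and Lgr5, read 99.9, 94.9 and 115 in HBC and 57.9, 49.0 and 51.6 in LBC. No arrays overlapped, and the LBC mean of 52.8 lay within the dim range. Its log2 fold change was 0.79 (SE 0.089, adjusted p = 4.3e-08), and 0.57, no longer called, with 50 added. Rspo1 and Rspo4 had log2 fold changes of 0.10 and 0.05, and their groups overlapped. Rspo4 lay within the dim range in both groups.

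The ubiquitin ligases that R-spondins remove were looked at after the values of the R-spondins had been seen. Znrf3 read 174.5, 182 and 174 in HBC and 240.0, 250.1 and 282 in LBC, without overlap. The log2 fold change was -0.50 (SE 0.086, adjusted p = 6.3e-05), below the fold needed for a call. Rnf43, its relative, read 44.5, 45.9 and 49.1 in HBC and 61.5, 58.1 and 52.2 in LBC. A log2 fold change of -0.23 did not pass the test (adjusted p = 0.064), and both groups lay within the dim range.

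**Figure D2:**
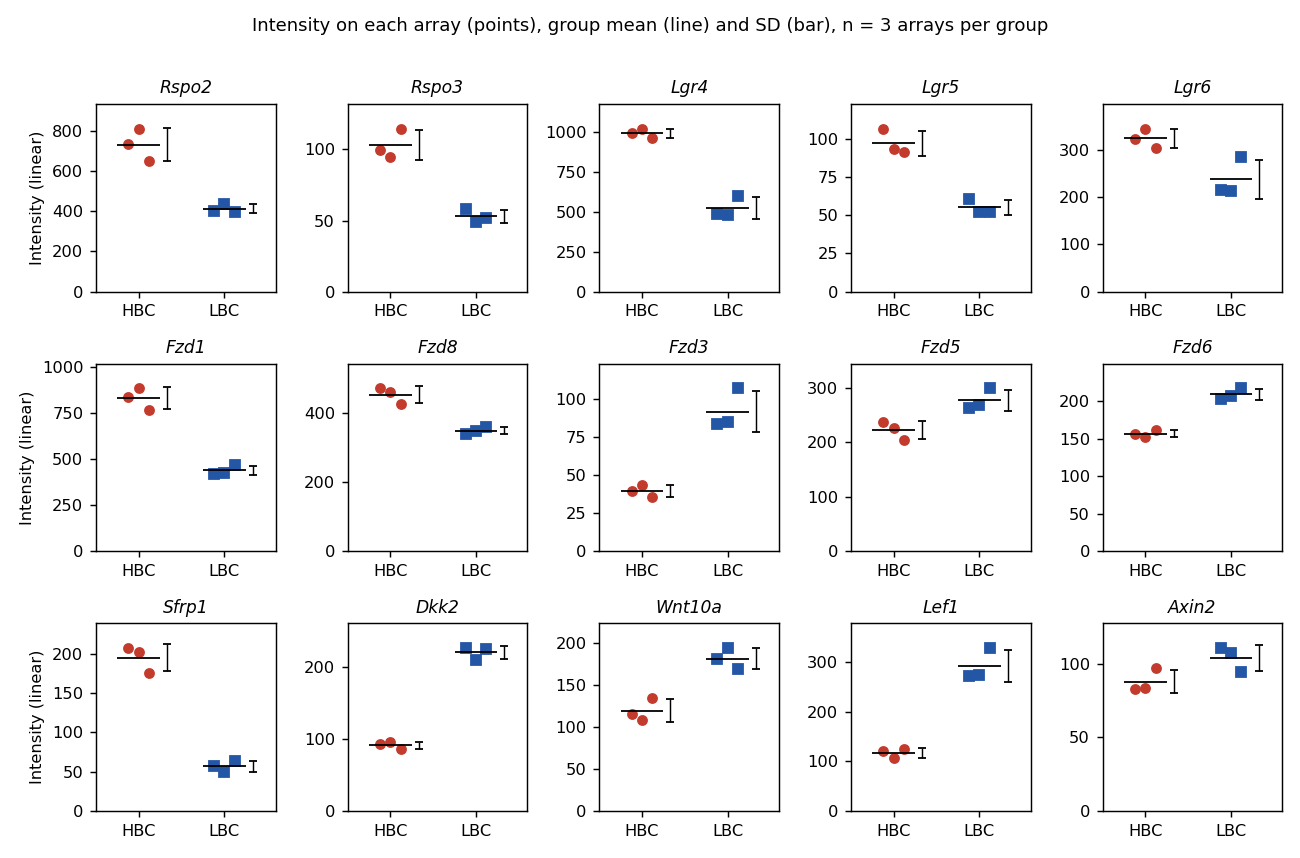
Intensity (linear units, axes from 0) of 15 genes on each array, with 3 HBC arrays in red and 3 LBC arrays in blue, black lines at group means and bars for the SD. HBC lie above LBC for Rspo2, Rspo3, Lgr4, Lgr5, Lgr6, Fzd1, Fzd8 and Sfrp1, below them for Fzd3, Fzd5, Fzd6, Dkk2, Wnt10a and Lef1, and overlap with them for Axin2.

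Frizzled receptors went in different directions. Of 10 genes, Fzd1 was called higher, Fzd3 was called lower and 8 were not called. The 2 calls were 20.0% of the group, against 3.67% of all genes. Fzd1 read 839, 885 and 767 in HBC and 422, 426 and 469 in LBC. The lowest HBC array lay well above the highest LBC array, for a log2 fold change of 0.89 (SE 0.087, adjusted p = 2.3e-09), a ratio of means of 1.89. Fzd3, a Frizzled best known from axon guidance and planar cell polarity, read 39.6, 43.3 and 35.8 in HBC and 83.3, 84.8 and 107 in LBC. The HBC mean of 39.6 lay within the dim range and the LBC mean of 91.7 just above it. The log2 fold change was -0.95 (SE 0.093, adjusted p = 2.5e-09), and it ran from -1.19 with 1 added to -0.66 with 50 added, so its size depends on the offset.

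A further 3 Frizzled genes passed the adjusted p but not the fold. Fzd8 had a log2 fold change of 0.36 (adjusted p = 0.0023), with 425 as the lowest HBC array and 359 as the highest LBC array. Fzd6, which acts mostly in planar cell polarity, had one of -0.38 (adjusted p = 0.0011), with arrays of 152 to 161 in HBC and 203 to 217 in LBC. Fzd5 had one of -0.30 (adjusted p = 0.015), with arrays of 204 to 237 in HBC and 263 to 299 in LBC. In none of the 3 did the arrays overlap. Fzd2, another receptor of the family, read 900.3, 911 and 835 in HBC and 744, 770.4 and 859 in LBC, which overlap, with a log2 fold change of 0.16 (adjusted p = 0.23). Fzd4, Fzd7, Fzd9 and Fzd10 had log2 fold changes from -0.13 to 0.06 and did not pass the test.

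Among the co-receptors and tyrosine kinase receptors, none of 5 was called. Lrp5 read 676, 710.4 and 647 in HBC and 510.4, 534 and 597 in LBC, with a log2 fold change of 0.30 (adjusted p = 0.013). Lrp6, the related co-receptor, had one of 0.09 and overlapping groups. Ror2 and Ryk, receptors of Wnt signals without beta-catenin, had log2 fold changes of 0.09 and 0.10, and Ror1 one of -0.13. None of these 4 passed the test. Ryk, for one, read 2318, 2336 and 2172 in HBC and 1990, 2015 and 2397 in LBC, where LBC replicate 3 was the highest array of all.

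The Wnt ligands as a group gave no call. Of 19 ligand genes, 18 had a negative log2 fold change and 1, Wnt9b, a positive one, with a median of -0.12. Over all genes 69.3% were negative as well, and of the olfactory receptor genes 65.9%. The count depended on scaling, with 16 of 19 negative after quantile normalization and after median centring, and 14 of 19 after cyclic loess normalization. Wnt10a, a ligand of the beta-catenin branch, was the 1 ligand to pass the adjusted p. It read 115, 108 and 135 in HBC and 181, 194 and 169 in LBC, with no overlap. The log2 fold change was -0.55 (SE 0.090, adjusted p = 3.3e-05), just short of the fold, while the ratio of mean intensities was 1.52 in favour of LBC. It was called in 3 of 20 alternatives, with 1 added (-0.60), without HBC replicate 3 (-0.63) and without LBC replicate 3 (-0.59). Its highest adjusted p over the 20 alternatives was 0.062, so it did not pass in all of them.

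The remaining 18 ligands had log2 fold changes from -0.19 to 0.04, with adjusted p of 0.14 or more. Wnt10b, the ligand best known for holding back adipogenesis, read 188, 177 and 164 in HBC and 189, 195 and 179 in LBC, which overlap, with a log2 fold change of -0.08. Wnt5a, the best known ligand of the branch without beta-catenin, read 344, 350.2 and 330.4 in HBC and 355, 356 and 409 in LBC. No arrays overlapped, yet the log2 fold change of -0.12 did not pass the test (adjusted p = 0.37). Wnt4 is covered by 2 clusters, with log2 fold changes of -0.10 and -0.05, neither of which passed. Wnt1, Wnt2, Wnt7a, Wnt7b, Wnt8a and Wnt8b lay within the dim range in both groups, so a change in them may not be detectable here. Wnt9b, the ligand with the positive value, read 578, 586 and 587 in HBC and 575, 563 and 564 in LBC (log2 fold change of 0.04, adjusted p = 0.78). Porcn, the acyltransferase that adds the lipid to Wnts, had a log2 fold change of 0.05.

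Secreted antagonists held the largest rise among the 55 genes, that of Sfrp1, and a fall in Dkk2. These were the 2 called of 11 genes (18.2%, against 3.67% of all genes). Sfrp1, a Wnt-binding protein, read 207, 202 and 175 in HBC and 56.5, 49.3 and 63.9 in LBC. Every HBC array lay far above every LBC array, with the LBC mean of 56.6 in the dim range. The means of 195 ± 17.4 (SD, n = 3) and 56.6 ± 7.26 (SD, n = 3) gave a ratio of 3.44, and the fitted log2 fold change was 1.54 (SE 0.092, adjusted p = 3e-14). It was 1.20 with 50 added and 1.77 with 1 added. Dkk2, which binds the Lrp co-receptors, read 92.9, 95.5 and 86.0 in HBC and 227, 209 and 225 in LBC. The groups were far apart, at 91.5 ± 4.93 (SD, n = 3) against 220.5 ± 9.62 (SD, n = 3), and LBC were higher by a ratio of 2.41. The log2 fold change was -1.14 (SE 0.085, adjusted p = 6.1e-12). It ran from -1.26 to -0.94 over the alternatives tested, and the HBC mean lay just above the dim range.

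Their relatives did not pass the test. Sfrp2 read 209, 201 and 216 in HBC and 221, 221 and 263 in LBC, and while no arrays overlapped its adjusted p was 0.24. Sfrp2, Sfrp4 and Sfrp5 had log2 fold changes of -0.16, -0.08 and 0.12. Dkk1, Dkk3 and Dkk4 had -0.15, 0.03 and -0.24, and Frzb, Wif1 and Notum -0.02, -0.03 and -0.07. Of these 9 genes, Sfrp4, Sfrp5, Dkk4, Frzb and Notum lay within the dim range in both groups. The sign of a small change in this group depended on scaling, with 8 of all 11 antagonists negative as measured and 5 of 11 after quantile, cyclic loess or median scaling.

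Lef1, a TCF/LEF factor that carries beta-catenin to its target genes, was called lower in HBC. It read 120.5, 106 and 124 in HBC and 273, 274 and 329 in LBC. All LBC arrays lay well above all HBC arrays, and the means were 117 ± 9.60 (SD, n = 3) and 292 ± 32.1 (SD, n = 3). LBC were higher by a ratio of 2.49, with a log2 fold change of -1.21 (SE 0.091, adjusted p = 8.5e-12). Axin2, the usual feedback target of beta-catenin, read 83.2, 83.2 and 96.9 in HBC and 111, 107 and 94.1 in LBC. These overlap, and its log2 fold change of -0.21 did not pass the test (adjusted p = 0.10). The HBC mean of 87.8 lay just above the dim range, and the LBC mean was 104.0, so a change may be hard to see here.

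The promoters of genes that changed are shown for the letters CTTTGA, a core that TCF/LEF factors are known to bind, searched on both strands. Windows are the 250 bases before a RefSeq transcript start in GRCm38.p6, and 36 of the 55 genes had at least 1. Of all 32851 windows, 13.8% held the letters, and of the 42 windows of these genes 7 did (16.7%), in Lef1, Fzd1, Frzb, Ror1, Wnt5b, Wnt11 and Dkk1. Wnt5b and Wnt11 also held the longer CTTTGAT on one strand or the other, which contains the shorter core and is present in 3.21% of all windows. Lef1 has 4 starts listed, 1 of which had matches. The windows of Lef1 (chr3:131156044-131156293, plus strand) and Fzd1 (chr5:4758217-4758466, minus strand) are printed as called genes with matches and those of Lgr4 (chr2:109917397-109917646, plus strand) and Dkk2 (chr3:132085042-132085291, plus strand) as called genes without. Each is 5′ to 3′ along the gene, and capitals mark the matched letters, which read reversed and complemented where the match is on the opposite strand.
Lef1: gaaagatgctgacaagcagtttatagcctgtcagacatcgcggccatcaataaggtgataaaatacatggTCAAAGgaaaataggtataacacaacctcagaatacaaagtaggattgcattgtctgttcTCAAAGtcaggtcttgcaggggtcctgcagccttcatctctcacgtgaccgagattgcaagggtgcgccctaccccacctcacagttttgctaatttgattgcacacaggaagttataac
Fzd1: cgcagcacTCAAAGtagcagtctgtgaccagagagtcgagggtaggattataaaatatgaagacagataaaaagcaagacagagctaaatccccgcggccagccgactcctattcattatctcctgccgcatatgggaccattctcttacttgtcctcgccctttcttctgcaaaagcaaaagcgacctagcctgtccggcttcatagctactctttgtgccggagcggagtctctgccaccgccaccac
Lgr4: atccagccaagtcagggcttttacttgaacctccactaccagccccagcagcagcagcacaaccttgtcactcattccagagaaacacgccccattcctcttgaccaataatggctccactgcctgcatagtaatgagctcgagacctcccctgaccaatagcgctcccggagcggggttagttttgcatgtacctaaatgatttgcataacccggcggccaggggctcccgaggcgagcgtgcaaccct
Dkk2: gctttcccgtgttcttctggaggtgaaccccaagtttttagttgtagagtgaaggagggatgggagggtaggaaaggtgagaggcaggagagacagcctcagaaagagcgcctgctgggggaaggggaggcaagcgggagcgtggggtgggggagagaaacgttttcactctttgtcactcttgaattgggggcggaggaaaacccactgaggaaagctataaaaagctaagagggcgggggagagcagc
The 2 matches in the Lef1 window begin 180 and 120 bases before the start, and the 1 in the Fzd1 window begins 242 bases before it. A match describes letters only, and Lef1 was lower in HBC while Fzd1 was higher.

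Other genes of the pathway were described from a list of 134 genes measured, of which 7 were called higher (2.54% of all genes were) and 2 lower (1.13% of all genes were), and the median was -0.08. The modulators of Wnts in secretion and at the cell surface held 5 of the 9 calls. These were 5 of 26 genes (19.2%), against 3.67% of all genes. Igfbp4, an IGF-binding protein that is also known to bind Lrp6, read 1651, 1788 and 1527 in HBC and 672, 687 and 713 in LBC, with 2.40 as the ratio of means and a fitted log2 fold change of 1.24 (SE 0.086, adjusted p = 1.3e-12). The list also holds 6 glypican and sulfatase genes, of which 3 were called higher and 3 were not called. Sulf2, a sulfatase that trims heparan sulfate, had a log2 fold change of 0.89, and the glypicans Gpc6 and Gpc4 had 0.88 and 0.64 (adjusted p = 4e-09, 1.8e-09 and 2.5e-06). The LBC mean of Sulf2, 70.4, lay within the dim range. Gpc4 was not called without HBC replicate 2 (0.58), and it was named after its value was seen. Sulf1, Gpc1 and Gpc3 did not pass the test, at -0.10, 0.25 and -0.16. Cthrc1, a secreted protein known to hold Wnts together with Frizzled and Ror2, fell from 693 ± 27.2 (SD, n = 3) in LBC to 390.3 ± 17.8 (SD, n = 3) in HBC, with a log2 fold change of -0.80 (adjusted p = 1.1e-08).

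**Figure D3:**
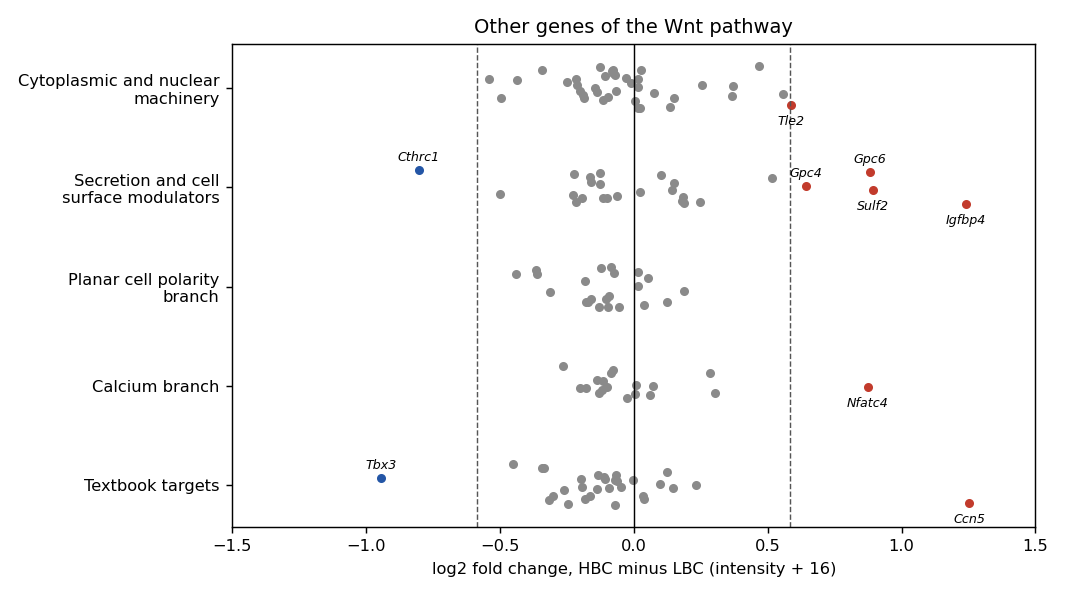
Another 134 genes of the Wnt pathway in 5 lists, each a point at its log2 fold change between HBC and LBC (after adding 16), shifted up or down only to part the points, with dashed lines at a fold of 1.5. Red marks 7 genes called higher, blue 2 called lower, and 5 of these 9 lie among the modulators of secretion and the cell surface.

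Of 38 genes of the cytoplasmic and nuclear machinery 1 was called (2.63%, against 3.67% of all genes), namely Tle2, a co-repressor of TCF/LEF factors, with a log2 fold change of 0.59 (adjusted p = 4.7e-06). That call sits at the threshold and was lost without HBC replicate 1 (0.58), HBC replicate 2 (0.54) or LBC replicate 1 (0.56), and with 50 added (0.52). Some genes were named after their values were seen, to set them beside Lef1. Tcf7l1, a TCF/LEF factor that acts mainly as a repressor, read 1060, 1102 and 1017 in HBC and 660, 682 and 808 in LBC. This gave a log2 fold change of 0.56 (adjusted p = 2.2e-05), just below the fold, and it was called after cyclic loess normalization (0.62), after median centring (0.63), without HBC replicate 3 (0.59), without LBC replicate 3 (0.65) and with LBC replicate 1 alone (0.67). Tcf7l2, another TCF/LEF factor, had a log2 fold change of 0.37 (adjusted p = 0.0046). Over the 20 alternatives the highest adjusted p was 0.054 for Tcf7l1 and 0.16 for Tcf7l2, so neither passed in all of them. Lef1 and these relatives thus had opposite signs, with no test of the difference between genes. Ctnnb1, the gene of beta-catenin, had a log2 fold change of 0.03 with overlapping groups, and its sign turned when LBC replicate 1 or 2 was left out. It read 3499, 3576 and 3383 in HBC and 3094, 3253 and 3983 in LBC.

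Among 30 textbook targets of beta-catenin 2 were called (6.67%, against 3.67% of all genes), Ccn5 higher and Tbx3 lower. Ccn5, a secreted matrix-associated protein, read 737, 768 and 735 in HBC and 295, 318 and 300.5 in LBC, a log2 fold change of 1.25 (SE 0.084, adjusted p = 4.8e-13). Tbx3, a T-box transcription factor, read 302, 298 and 303 in HBC and 559, 555 and 675 in LBC, a log2 fold change of -0.94 (SE 0.089, adjusted p = 1.2e-09). The median over the 30 targets was -0.11, and 23 of them (76.7%) were negative, against 69.3% of all genes. At any fold, 7 of the 30 passed the adjusted p (23.3%, against 18.3% of all genes), 1 of them higher and 6 lower. Over all genes, 1381 that passed it were higher and 2274 lower. Of 18 genes of the calcium branch 1 was called (5.56%, against 3.67% of all genes), namely Nfatc4, a calcineurin-dependent transcription factor, with a log2 fold change of 0.87 (adjusted p = 1.3e-09). None of 22 genes of the planar cell polarity branch was called, and 4 of them (Vangl2, Prickle1, Scrib and Intu) passed the adjusted p with log2 fold changes from -0.44 to -0.31. That is 18.2% of the branch, against 18.3% of all genes.

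Markers of other cell types were read beside these results. Of 4 mesothelial markers, Msln was called lower in HBC, at 72.6 ± 2.26 (SD, n = 3) against 187 ± 5.48 (SD, n = 3), and Upk3b, Wt1 and Lrrn4 did not pass the test. Their summed intensity was 392 to 413 on the HBC arrays and 534 to 552 on the LBC arrays, a gap that lay mostly in Msln. Summed leukocyte markers were 855 to 900 in HBC and 967 to 1037 in LBC, with none of 10 called and Cd14 past the adjusted p (log2 fold change of -0.48, adjusted p = 8.9e-05). Of the stromal markers, Col3a1 was called higher (0.80) and Dcn lower (-0.78), with 13 of 15 not called. At any fold, 7 of 15 passed the adjusted p (46.7%, against 18.3% of all genes). Summed mural markers were 516 to 569 in HBC and 559 to 627 in LBC, with none of 6 called and Rgs5 past the adjusted p (-0.49, adjusted p = 6.3e-05). Summed adipocyte markers were 546 to 613 in HBC and 499 to 583 in LBC, with none of 6 called. Among them Retn passed the adjusted p without overlap, at 187 ± 5.36 (SD, n = 3) against 120.3 ± 11.4 (SD, n = 3) in LBC, and its log2 fold change of 0.58 (adjusted p = 7.9e-06) was just short of the fold. No endothelial, Schwann or epithelial marker was called. All sums are of intensities as measured, where 69.3% of all genes had a negative log2 fold change. After median centring 9979 of 19938 genes did, and the sums were not recomputed after other scaling. The part of these marker differences in the results above was not tested.

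**Figure D4:**
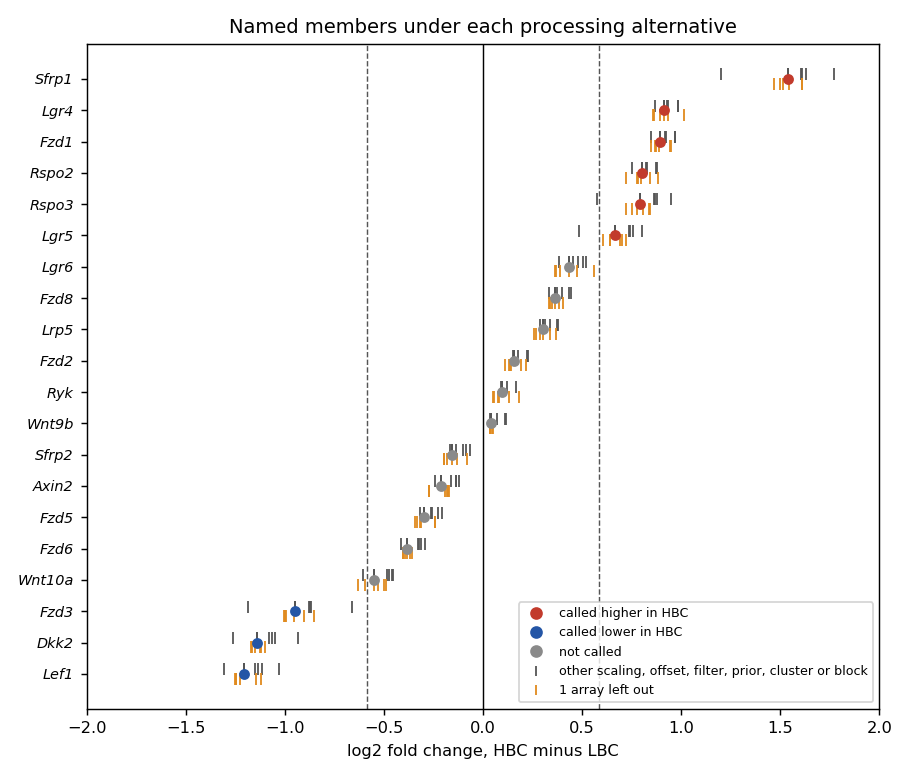
Log2 fold change (HBC minus LBC) of the 20 named genes of the group under each processing alternative, with large points for the values reported, grey ticks for other scaling, offsets, filters, priors, cluster choices, tests or the replicate block, orange ticks for 1 array left out, and dashed lines at a fold of 1.5. No tick crosses 0, and Wnt10a, Rspo3 and Lgr5 have ticks on both sides of the fold threshold.

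The 9 called genes kept their direction under the 20 alternatives of scaling, offset, filter, test, cluster, block and left-out array in which each could be tested. Their highest adjusted p over these alternatives lay between 0.0055 for Dkk2 and 0.031 for Rspo2. Those values came from the test that the methods name, which takes each gene's spread from its own 6 arrays. The 6 members past the adjusted p but below the fold held less well. Their highest adjusted p over the alternatives was 0.17 for Lgr6, 0.16 for Fzd5, 0.11 for Lrp5 and 0.062 for Wnt10a. For Fzd8 and Fzd6 it stayed under 0.05, at 0.039 and 0.016.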

How the data were processed

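Affymetrix mouse gene arrays were hybridized with RNA of HBC and LBC, 3 technical replicates each, grouped by sample title. The deposited values are linear intensities per transcript cluster, which the authors computed in Affymetrix Expression Console (submitters' processing notes). Which version, summary method and normalization they used is not given in the sources used here. Of 35556 clusters, 21789 carried 1 gene symbol, 1621 several and 12146 none. For the 999 genes with several clusters, of which Wnt4 was 1 member, the brightest over 6 arrays was used. All 55 members matched RefSeq by gene identifier with no symbol changed. log2(intensity + 16) of 19938 genes was fitted with limma 3.58.1 in R 4.3.3 (lmFit, eBayes), with 24.9 prior and 4 residual degrees of freedom, and Benjamini-Hochberg adjustment. Calls needed both thresholds, adjusted p 0.05 and fold 1.5. The script was tested on simulated data.

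The members and lists were chosen with earlier results of these data known. Named were called members, members past the adjusted p without overlap, the brightest and the most changed member of each role, and up to 4 called genes of each pathway list; others are said to be chosen after their values were seen, or are given as values to complete a family. The number of arrays limits the precision. Alternatives were other offsets, scaling by quantiles, cyclic loess or medians, intensity filters, trended and robust priors, the test of the methods, other choices of cluster, every cluster, a replicate block, other fold thresholds and leaving out each array; LBC replicate 1 alone against HBC was added after seeing the data. Promoter windows came from RefSeq (GRCm38.p6); no build is named for the array's own annotation, so gene coordinates are left out.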

Additional observations from a re-analysis of the deposited data

How the results depend on the processing

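The counts of called members, 6 higher and 3 lower, changed by more than 1.5 times with the filter of a mean above 100 in both groups, to 3 and 1. The paper's methods name that filter for selecting genes. Sfrp1, Rspo3, Lgr5, Dkk2 and Fzd3 left the test under it, because each had a mean below 100 in at least 1 group. A fold above 2 left 1 member higher. Without a fold threshold, 6 members were lower. Among the pathway genes, 14 were higher and 18 lower without a fold threshold, and 2 and 0 at a fold above 2 (limma). Over all genes the counts were 1381 higher and 2274 lower without a fold threshold, and 236 and 44 at a fold above 2. No other alternative run moved these counts by more than 1.5 times, and leaving out 1 array gave 6 members higher each time and 3 to 4 lower. Replicate numbers did not pair the arrays, with correlations of the deviations from the group means of -0.096, -0.24 and -0.50 for numbers 1, 2 and 3, and with the replicate block the called members stayed at 6 and 3. For Ctnnb1, values with 1 array left out ran from -0.0464 to 0.135 and were negative without LBC replicate 1 (-0.05) and LBC replicate 2 (-0.01); the cause was not tested. Of the values of single named genes under the alternatives, 731 kept their direction and their side of the threshold, 21 lost a call, 17 gained one and 2 turned. Signals near those of olfactory receptor genes limit what can be seen of Lgr5, Rspo3, Sfrp1 and Sulf2 in LBC and of Fzd3, Dkk2, Axin2, Msln and Rgs5 in HBC.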
